A study of Mus musculus with 12 samples.

Results

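The 35 genes described here encode proteins of mitosis and cytokinesis, among them cyclins, mitotic kinases, checkpoint proteins, kinetochore subunits, spindle motors and cytokinesis factors. They were taken as a named list, and all 35 were found among the 53819 entries of the count table. Messenger RNA was sequenced from 12 libraries of wild-type (WT) mouse stromal cell preparations, 3 in each of 4 groups. BM sorted and BM nonsorted were marrow cells of the hind limbs and pelvis, grown on collagen I and taken after the first passage. BM sorted cells had passed a flow sort that kept CD51- and Sca-1-positive cells and removed cells with CD31, CD45, Ly6C or F4/80, while BM nonsorted cells were used without a sort. BAC depleted and BAC nondepleted were bone-associated cells (BAC) released from hind-limb bone fragments by collagenase I, the first after magnetic removal of cells with CD45, Ly6C or F4/80, the second without it. The medium in the labels lacked ascorbic acid and the cultures were hypoxic. The sources used here do not state the age or sex of the mice, pooling of animals, or how long bone-associated cells were kept in culture. The labels number the libraries of a group but do not say that they came from separate animals or cultures, so p-values rest on the spread among libraries, some of which could be technical.

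In a dividing cell, cyclin-dependent kinase 1 (Cdk1) bound to cyclin A or cyclin B starts mitosis, the spindle captures chromosomes at their kinetochores, and a checkpoint holds anaphase back until all are attached. The anaphase-promoting complex then marks cyclin B and securin for destruction, and the cell divides by cytokinesis. Most of these genes are transcribed from late S phase to mitosis and are repressed in resting cells, so their messenger RNA is widely used as a measure of how many cells in a sample are cycling. Stromal cells in intact bone and marrow divide rarely, and they enter the cycle when plated. Macrophages in tissue and in culture can divide as well.

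Libraries held 27937709 to 32164725 counts. All 35 genes passed the low-count filter, and the lowest count of any of them in a library was 16. Of 10 stromal markers none was at 0 in any group, with summed levels of 28197 CPM (read counts scaled to a common library size) or more in every library. The 13 macrophage markers summed to 6.35 to 8.73 CPM in BM sorted, against 5105 to 5794 in BM nonsorted, and to 12.5 to 64.5 in BAC depleted, against 12993 to 14663 in BAC nondepleted. In BAC depleted 7 of these 13, among them Ptprc (CD45), C1qa and Tyrobp, were at 0 counts in all libraries. The highest sums of the markers of lymphoid (0.419 CPM), erythroid (0.537) and neutrophil cells (2.67) were low in all groups, as were endothelial markers (at most 8.32). Markers of haematopoietic progenitors summed to 39.5 to 87.4 CPM in BAC depleted, against 64.4 to 114 in BAC nondepleted. Library 1 of BAC depleted carried the X and Y transcripts of female cells, with 43406 counts of Xist and 0 of Ddx3y, against at most 16 of Xist and at least 2484 of Ddx3y in the other 11. In library 3 of BAC depleted Thbs1 took 8.11% of all counts, and mitochondrial transcripts took 1.82% to 2.62% in BAC depleted and 1.08% to 1.36% in the other groups. Calls and medians of the 35 genes that use BAC depleted are therefore also given without these libraries. Results of the other gene lists rest on all 12 libraries.

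Summed over the 35 genes, they reached 1317, 1447 and 1982 CPM in BM sorted, against 1794, 1739 and 1663 CPM in BM nonsorted. The sums were 84.8, 282 and 123 CPM in BAC depleted, against 1032, 831 and 892 CPM in BAC nondepleted. The marrow groups overlap, BAC nondepleted lies below both, and all BAC depleted libraries lie below every other library. For 32 of the 35 genes the group means ran in the order BM nonsorted, BM sorted, BAC nondepleted, BAC depleted. For the other three, Ttk, Mad2l1 and Top2a, BM sorted stood above BM nonsorted, and none of the 35 passed the test between these neighbouring marrow groups. In bulk RNA, fewer cycling cells and less of these messages per cell cannot be told apart.

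**Figure D1:**
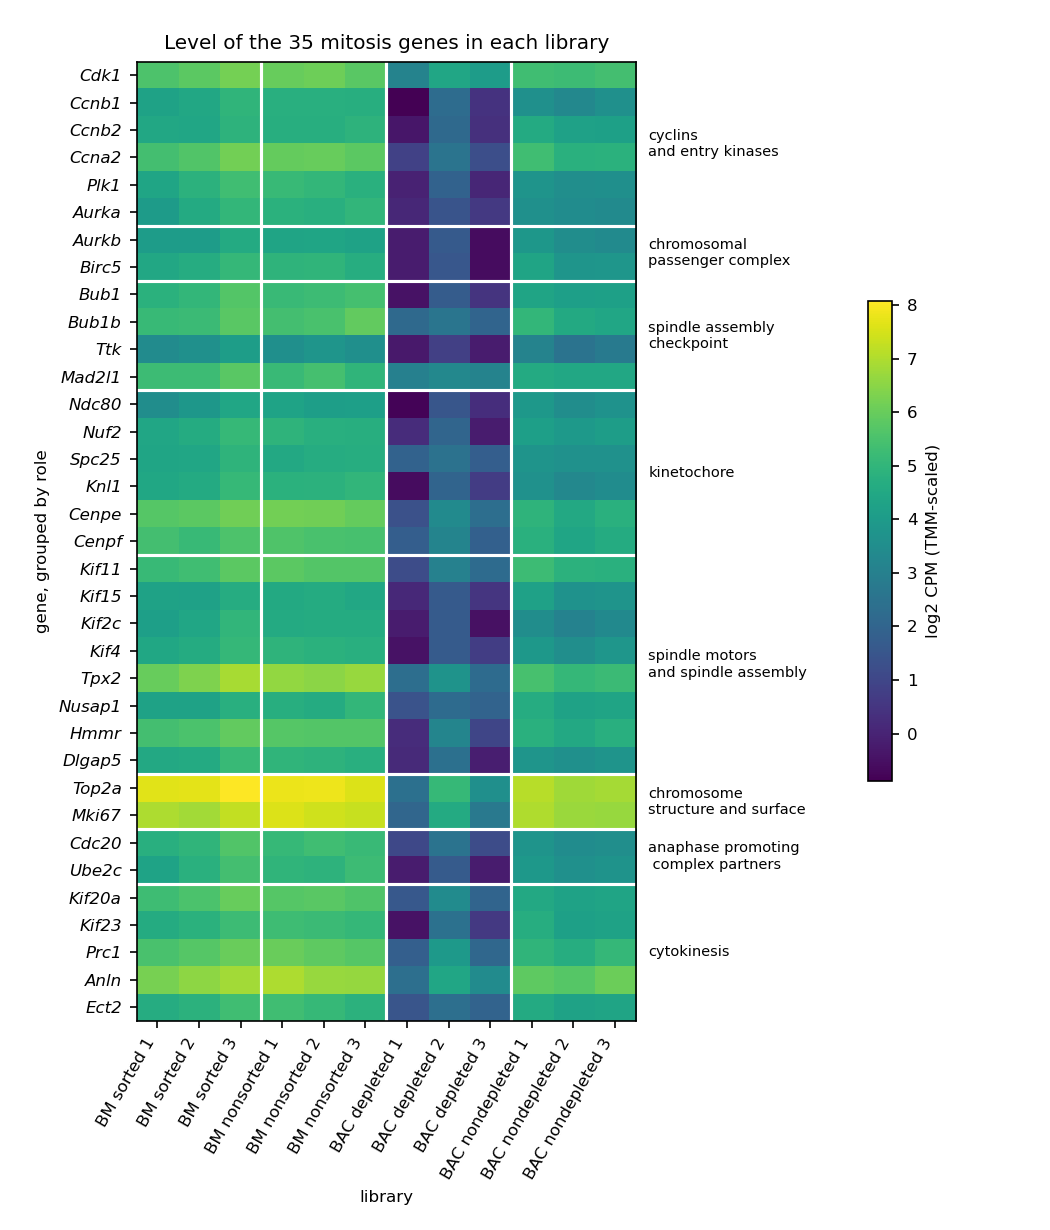
Heat map of the 35 mitosis genes (down the page, grouped by role) in the 12 libraries (across), coloured by log2 CPM on TMM-scaled library sizes. The 3 BAC depleted columns are the darkest in every row, and single genes there fall to 0.541 CPM.

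The first comparison asked what flow sorting did to these genes in marrow cultures. None of the 35 was called at an adjusted p under 0.05 (quasi-likelihood test of edgeR, Benjamini-Hochberg adjusted), where 6.23% of the 15698 genes tested were called, 0.166% higher and 6.06% lower. None passed at an unadjusted p under 0.05, and none by the DESeq2 Wald test or limma-voom. Log2 fold changes ran from -0.44 to 0.23 with a median of -0.13, against a median of 0.00 over all genes, and adjusted p ran from 0.527 to 0.992. The standard errors (SE) of 0.16 to 0.54 leave room for moderate differences, so the test does not show equality. Over the same libraries all 13 macrophage markers fell, and their sum was at most 8.73 CPM in BM sorted. None of 5 stress genes (Fos, Jun, Egr1, Hspa1a, Hspa1b) passed, with sums of 191 to 273 CPM in BM sorted, against 586 to 735 in BM nonsorted.

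Top2a, the topoisomerase that untangles sister chromatids, stood at 204, 206 and 269 CPM in BM sorted libraries 1, 2 and 3, against 227, 228 and 195 in BM nonsorted. Mki67, which encodes the Ki-67 protein that coats mitotic chromosomes, stood at 125, 113 and 153 CPM in BM sorted, against 195, 173 and 160.4 in BM nonsorted. The Top2a values overlap, while all BM sorted values of Mki67 lie below all BM nonsorted values, the only one of the 35 genes for which the libraries did not overlap (16.7% of all genes did not overlap in that direction). Its log2 fold change of -0.44 ± 0.48 did not pass (adjusted p = 0.794), nor did it in any of 15 alternative fits. This SE rests on a spread estimated over all 12 libraries, not on the marrow libraries alone. The standard deviation of Mki67 was 15.9% of its mean in BM sorted and 9.89% in BM nonsorted, against 92.3% in BAC depleted. The largest positive value belonged to Mad2l1, the checkpoint protein MAD2, at 0.23 ± 0.16 (adjusted p = 0.593).

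The second comparison asked what magnetic removal of haematopoietic cells did to the same genes in bone-associated cells. All 35 fell and none rose, where 19.9% of all genes tested fell and 17.4% rose. The median log2 fold change was -2.63, a 6.20-fold lower level, against a median of 0.05 over all genes. The 3 libraries of each group did not overlap for any of the 35, with BAC depleted lower throughout, as was so for 24.9% of all genes. Adjusted p ran from 2.17e-05 for Nusap1 to 0.0106 for Ccnb1. The macrophage markers fell in the same comparison, to 12.5 to 64.5 CPM in BAC depleted, against 12993 to 14663 in BAC nondepleted, and their part in the result was not tested. The stress genes summed to 589, 5839.7 and 6791 CPM in BAC depleted 1, 2 and 3, against 2439 to 4071 in BAC nondepleted, and its part was not tested either. All 35 calls held without any single library, among them BAC depleted 1, and also with BAC depleted 1 and 3 left out together, where the lone library left is assumed to vary like the other groups and the median was -1.94. Without BAC depleted 2 the median was -3.51. In a fit on these 6 libraries alone 31 were called, and Ccnb1 (adjusted p = 0.0787), Hmmr (0.0560), Dlgap5 (0.0618) and Prc1 (0.0661) were not.

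Of the kinases and cyclins that start mitosis, all 6 fell. Ccna2, cyclin A2, which partners Cdk2 in S phase and Cdk1 in G2, stood at 1.81, 5.94 and 2.42 CPM in BAC depleted 1, 2 and 3, against 40.5, 27.9 and 28.6 in BAC nondepleted. It fell 9.54-fold (-3.25 ± 0.41 on the log2 scale, adjusted p = 0.000218). Ccnb1, cyclin B1, stood at 0.541, 4.84 and 1.33 CPM in BAC depleted, against 12.1, 9.81 and 12.1 in BAC nondepleted. Library 2 of BAC depleted was the highest of its group for each of these cyclins, and no library crossed between groups. Ccnb2, a second B cyclin, fell 9.31-fold and Ccnb1 5.06-fold. Cdk1 itself had the smallest fall of the 35 (-1.36 ± 0.28 as log2 fold change, adjusted p = 0.00405) and stood at 8.62, 21.3 and 16.9 CPM in BAC depleted, against 40.1, 38.6 and 41.6 in BAC nondepleted. The polo-like kinase Plk1 and Aurka, the Aurora kinase of centrosomes and spindle poles, fell 6.27-fold and 6.37-fold.

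The chromosomal passenger complex corrects faulty attachments between spindle and chromosomes. Its subunit Birc5, survivin, had the largest fall of the list, and stood at 0.859, 2.90 and 0.667 CPM in BAC depleted, against 20.5, 13.8 and 14.1 in BAC nondepleted. The fall was 10.9-fold (-3.44 ± 0.47, adjusted p = 0.000376), and Aurkb, the kinase of the complex, fell 7.83-fold. All 4 genes of the spindle assembly checkpoint fell, but unevenly. Bub1, a checkpoint kinase, stood at 0.731, 3.32 and 1.37 CPM in BAC depleted, against 20.5, 18 and 18.6 in BAC nondepleted, a 10.5-fold lower level. Bub1b (BubR1) and Ttk (MPS1) fell 5.36-fold and 6.12-fold. Mad2l1 stood at 8.01, 9.76 and 8.75 CPM in BAC depleted, against 24.3, 22.3 and 22.5 in BAC nondepleted, and fell 2.61-fold, with a small error (-1.38 ± 0.16, adjusted p = 0.000139). Its BAC depleted libraries lay closer together than those of Bub1.

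All 6 kinetochore genes fell. Ndc80, Nuf2 and Spc25 encode 3 subunits of the complex that holds microtubule ends. Ndc80 stood at 0.572, 2.83 and 1.21 CPM in BAC depleted, against 14.7, 11.5 and 12.9 in BAC nondepleted, and Nuf2 fell with it (-3.08 ± 0.46 and -3.04 ± 0.47). Spc25 stood at 3.82, 5.59 and 3.50 CPM in BAC depleted, against 13.3, 12.6 and 12.4 in BAC nondepleted, a 2.96-fold lower level (-1.57 ± 0.20, adjusted p = 0.000195). Messages for partners in 1 complex thus differed in the size of their fall, though this difference between genes was not tested. Knl1, the scaffold that recruits the checkpoint, fell 5.37-fold, the kinetochore motor Cenpe 4.51-fold and Cenpf 4.56-fold.

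The 8 genes of spindle motors and spindle assembly fell within a narrow span, from -2.99 for Kif15 to -2.33 for Tpx2 on the log2 scale. Kif15 is a motor that works beside Kif11 in keeping the spindle bipolar. Tpx2, which activates Aurora A on the spindle, stood at 5.09, 13 and 4.75 CPM in BAC depleted, against 44, 33.8 and 37.4 in BAC nondepleted. Kif11, the motor that pushes the spindle poles apart, stood at 2.29, 8.31 and 4.75 CPM in BAC depleted, against 38.4, 29 and 27.6 in BAC nondepleted. Neither gene had overlapping libraries. Kif2c, which takes microtubule ends apart, the chromokinesin Kif4, and the spindle proteins Nusap1, Hmmr and Dlgap5 fell 6.25-, 7.19-, 5.80-, 6.38- and 5.26-fold. Of the chromosome proteins, Top2a stood at 5.34, 34.6 and 12 CPM in BAC depleted, against 138, 111 and 116 in BAC nondepleted, and Mki67 at 4.23, 23.9 and 6.71, against 129, 105 and 104. The falls were 7.03-fold and 9.68-fold, with library 2 of BAC depleted far above the other two.

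The partners of the anaphase-promoting complex fell by unlike amounts. Ube2c, its ubiquitin-conjugating enzyme, stood at 0.859, 3.25 and 0.875 CPM in BAC depleted, against 14.9, 12.1 and 13.1 in BAC nondepleted, and fell 8-fold (-3.00 ± 0.48, adjusted p = 0.00102). Cdc20, its activator, fell 3.59-fold (-1.85 ± 0.36, adjusted p = 0.0032). Among the 5 cytokinesis genes the falls ran from 3.53-fold for Kif20a to 8.25-fold for Kif23, a motor of the central spindle. Anln, anillin of the contractile ring, stood at 5.25, 21.3 and 10.7 CPM in BAC depleted, against 57.8, 51.7 and 66.6 in BAC nondepleted. Prc1, which bundles the central spindle, and Ect2, the exchange factor that switches on RhoA at the cleavage site, fell 3.90-fold and 5.33-fold.

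**Figure D2:**
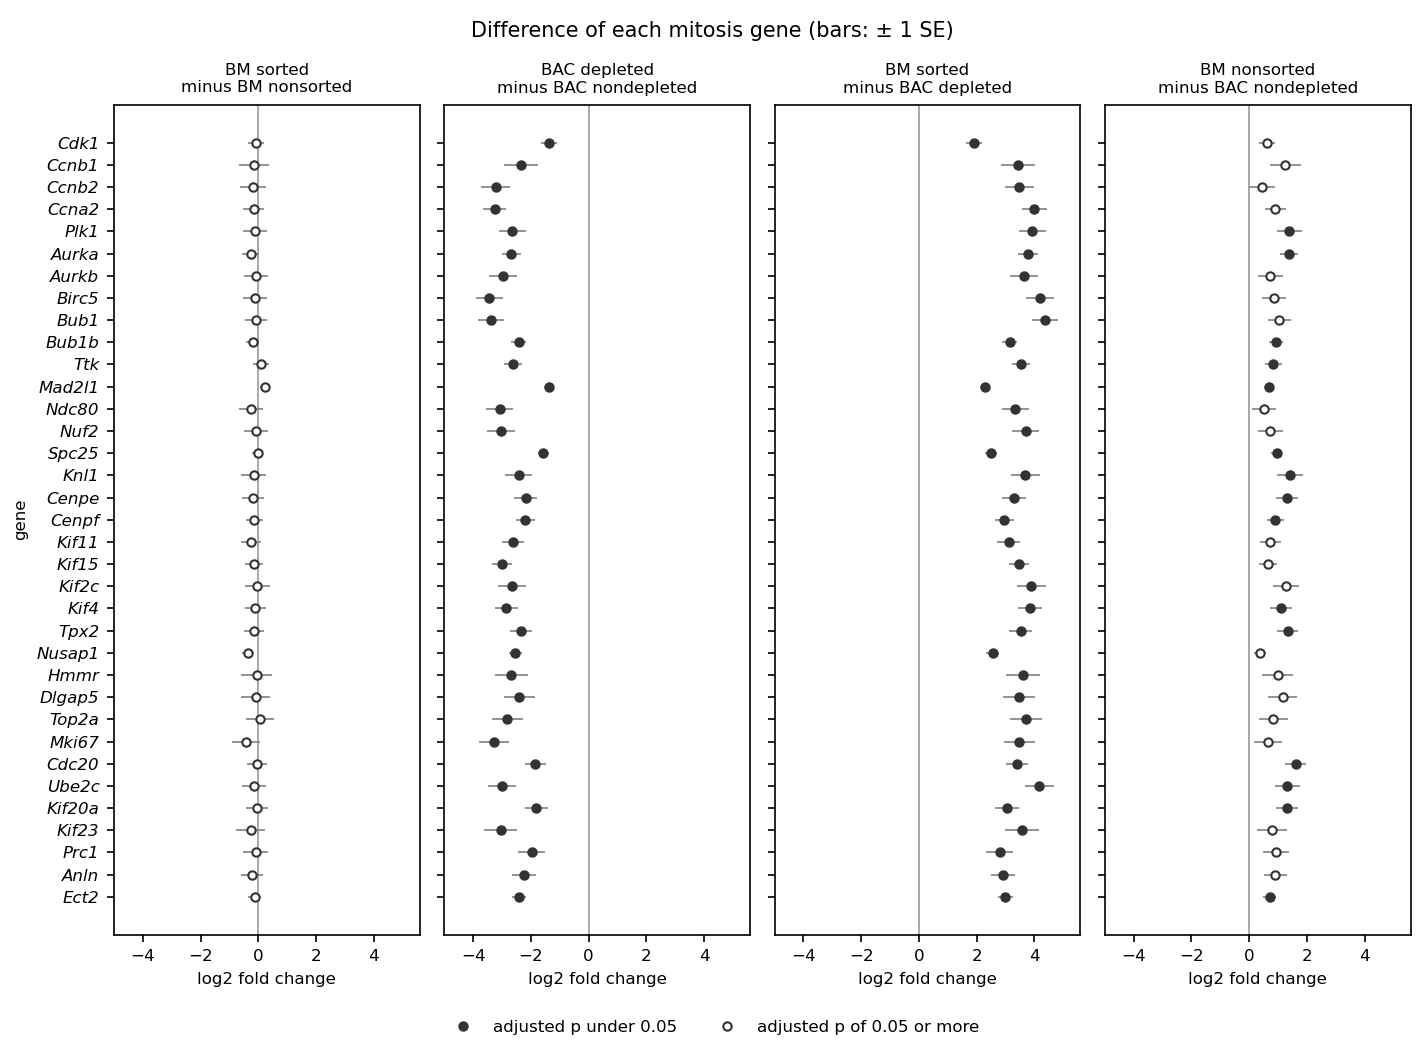
Log2 fold change of each of the 35 genes with its standard error in the 4 comparisons of 2 groups, from one edgeR fit to all 12 libraries. After sorting all points lie near 0, after depletion all lie between -3.44 and -1.36, and BM sorted stands above BAC depleted by 1.91 to 4.37.

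The purified cells of both compartments were then set side by side. All 35 genes were higher in BM sorted than in BAC depleted, where 22.9% of all genes tested were higher and 24.6% lower, with a median log2 fold change of 3.48 (11.2-fold), against -0.02 over all genes. No library of either group crossed over for any of the 35, as was so for 26.4% of all genes in that direction. Of the 35, 27 differed by more than 8-fold, and the share of all genes over 8-fold was not counted. Bub1 had the widest difference, at 28.4, 32.7 and 51.2 CPM in BM sorted, against 0.731, 3.32 and 1.37 in BAC depleted. This came to 20.7-fold (4.37 ± 0.46, adjusted p = 9.35e-05). Birc5, Ube2c, Ccna2 and Plk1 followed at 18.3-, 18-, 16.1- and 15.3-fold. Cdk1 had the narrowest, at 47, 55.8 and 73.1 CPM in BM sorted, against 8.62, 21.3 and 16.9 in BAC depleted, or 3.76-fold (1.91 ± 0.28, adjusted p = 0.000523). Mad2l1, Spc25 and Nusap1 were next, at 4.93-, 5.62- and 5.88-fold.

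Both purified groups were nearly free of macrophage messages, with marker sums of 6.35 to 8.73 CPM in BM sorted and 12.5 to 64.5 in BAC depleted, where Lyz2 alone gave 15.8, 60.6 and 7.12 CPM. All 35 calls held without any single library. With only library 2 of BAC depleted kept, the median was 2.59 and all 35 were still called, and without library 2 it was 4.25. All 5 stress genes were lower in BM sorted than in BAC depleted (median log2 fold change -3.10), with sums of 191 to 273 CPM in BM sorted, against 589 to 6791 in BAC depleted, and their part in the result was not tested. Compartment, isolation of the cells and method of purification differ together between these groups and cannot be told apart. This comparison shares libraries with the sorting and the depletion, so it is not independent of them.

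Before purification the marrow cultures also stood above the bone-associated cells, by less. In BM nonsorted 15 of the 35 genes were higher than in BAC nondepleted, none was lower and 20 did not pass, where 14.9% of all genes tested were higher and 16.8% lower. All 35 log2 fold changes were positive, from 0.38 to 1.61 with a median of 0.91, against -0.01 over all genes. For 34 genes the libraries did not overlap, against 27.3% of all genes in that direction, and the exception was Nusap1. Cdc20 differed most, at 35, 40.0 and 36.1 CPM in BM nonsorted, against 13.5, 11.2 and 11.7 in BAC nondepleted (1.61 ± 0.35, adjusted p = 0.00795). Aurka stood at 28.3, 27.4 and 32 CPM in BM nonsorted, against 12.2, 11.1 and 10.5 in BAC nondepleted (1.38 ± 0.30, adjusted p = 0.00839). In both genes every marrow library was above every bone-associated one. Spc25 (0.95 ± 0.19, adjusted p = 0.00525) and Mad2l1 (0.69 ± 0.16, 0.0103) passed as well, and these 4 were the genes that passed in each of the 6 fits with 1 library left out.

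The count of 15 depended on the libraries and the fit. It was 6 without BM nonsorted 1, 2 or 3 or without BAC nondepleted 1, and 4 without BAC nondepleted 2 or 3, while a fit on these 6 libraries alone called 34. Ccnb2 (0.43 ± 0.45, adjusted p = 0.492), Nusap1 (0.38 ± 0.22, 0.204) and Ndc80 (0.51 ± 0.42, 0.368) differed least. Macrophage markers summed to 5105 to 5794 CPM in BM nonsorted, against 12993 to 14663 in BAC nondepleted. The stress genes, of which 2 of 5 were lower, summed to 586 to 735 CPM in BM nonsorted, against 2439 to 4071 in BAC nondepleted. The part of either list in the result was not tested.

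Whether flow sorting of marrow cells and magnetic depletion of bone-associated cells acted differently was tested as the sorting effect minus the depletion effect. Compartment and method of purification differ together in this contrast and cannot be told apart. All 35 differences were positive, and 25 passed, where 5.08% of all genes tested passed in that direction and 2.99% in the other. The median was 2.41 on the log2 scale, against -0.06 over all genes. The largest differences were those of Birc5 (3.33 ± 0.61, adjusted p = 0.0131), Bub1 (3.32 ± 0.59, 0.0108) and Ccna2 (3.10 ± 0.54, 0.0102). The 10 that did not pass were Cdk1, Ccnb1, Knl1, Cenpe, Hmmr, Dlgap5, Cdc20, Kif20a, Prc1 and Anln, with adjusted p of 0.0504 to 0.112. All 35 passed without BAC depleted 2 and 30 without BAC depleted 1 and 3 together, but only 11 passed without BM sorted 3. Leaving out BM nonsorted 1, 2 or 3 gave 12, 11 and 12, and leaving out BAC nondepleted 1 or 2 gave 13 and 16. The 11 genes that passed in all 12 of these fits were Aurka, Birc5, Bub1, Bub1b, Ccna2, Ect2, Kif15, Mad2l1, Nusap1, Spc25 and Ttk.

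In both purified groups 1 library held the highest value of every one of the 35 genes. In BM sorted, library 3 held the highest value of all 35 genes and library 1 the lowest value of 30, where 31.8% of all genes were highest in library 3 and 41.7% lowest in library 1. The median gene stood at 0.810, 0.914 and 1.26 times its group mean in libraries 1, 2 and 3. In BAC depleted, library 2 held the highest value of all 35, against 33% of all genes, and the median gene stood at 0.517, 1.83 and 0.693 times its group mean. Hmmr, a spindle protein that also binds hyaluronan, stood at 1.18, 9.02 and 2 CPM in those libraries. BAC nondepleted 1 was the highest of its group for 31 genes, against 36.1% of all genes. The BM nonsorted libraries 1, 2 and 3 shared the highest values, with 14, 11 and 10 of the 35, near the shares of all genes (36.2%, 27.8% and 36.5%).

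The spread of the median gene (coefficient of variation) was 23.7% in BM sorted, 7.28% in BM nonsorted, 72% in BAC depleted and 12.6% in BAC nondepleted. Over all genes tested these figures were 13.1%, 12.4%, 23.6% and 12.8%. The mitosis genes were thus more uneven than the median gene in the purified groups and not in the others, as a description of 3 libraries each. In BAC depleted 27 of them stayed below 10 CPM in every library, and their lowest count was 16. BAC depleted 1 was also the library with the X and Y transcripts of female cells. The part of low levels or of this library in the spread was not tested. BAC depleted 2 also held the most Lyz2 of its group, while 9 of the 13 macrophage markers were at 0 counts in it, and the 2 values were not tested against each other.

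**Figure D3:**
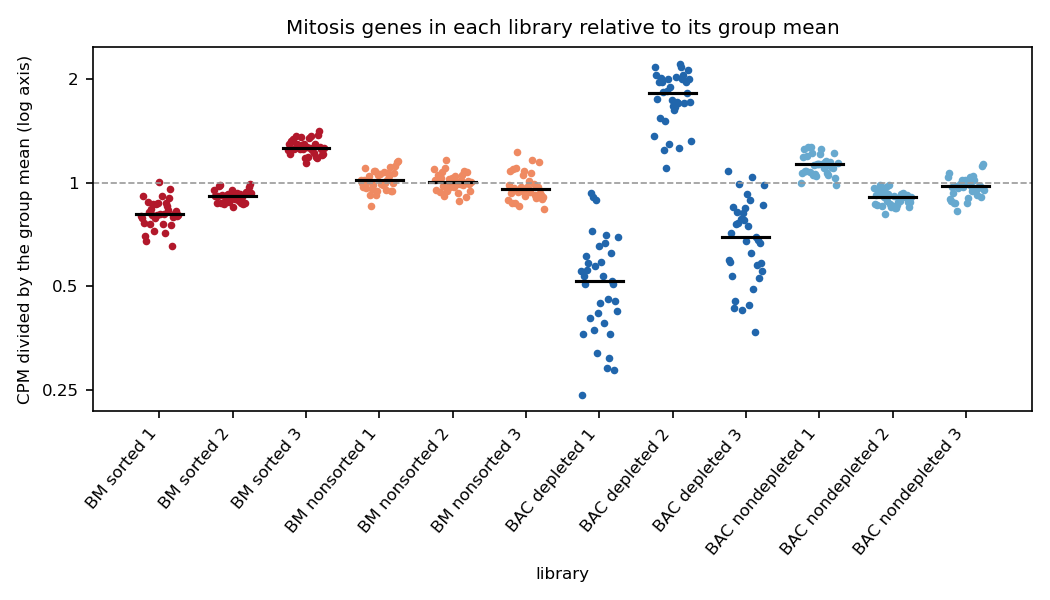
CPM of each of the 35 genes in a library divided by that gene's mean in its group (log axis), with a black bar at the median. BAC depleted 2 lies above its group mean for every gene, with a median of 1.83, and BM sorted 3 likewise, with a median of 1.26.

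A wider set of 142 cell-cycle genes in 13 lists was measured beside the 35, and all 142 were tested. Their tests used all 12 libraries and were not repeated without BAC depleted 1 or 3. After depletion 84 of the 142 fell (59.2%) and 9 rose (6.34%), against 19.9% and 17.4% of all genes tested. After sorting 2 fell (1.41%), against 6.06% of all genes, and none rose. In BM sorted 90 were higher (63.4%) and 11 lower (7.75%) than in BAC depleted, against 22.9% and 24.6% of all genes. Of 11 other centromere and passenger genes 9 fell on depletion and none rose (median -2.05), led by Cdca8, borealin (-2.60 ± 0.34, adjusted p = 0.000259), and the histone kinase gene Haspin (-2.47 ± 0.27, 7.23e-05). Of 12 other spindle genes 9 fell (median -1.88), among them the kinesins Kif18b (-3.23 ± 0.48, 0.000631) and Kif14 (-3.21 ± 0.63, 0.00326). Of 8 condensin genes, whose products compact chromosomes, 7 fell, led by Ncaph (-3.03 ± 0.39, 0.000253) and Ncapg (-2.35 ± 0.25, 5.90e-05).

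Of 11 other kinetochore genes 7 fell and 1 rose, where 19.9% of all genes tested fell and 17.4% rose. Ska1, which helps kinetochores follow shrinking microtubules, and Knstrn fell (-3.16 ± 0.59 and -2.88 ± 0.33, adjusted p = 0.00221 and 0.000118), while Zwint, a partner of Knl1, rose (0.49 ± 0.14, 0.0189). Zwint stood at 71.1, 98.2 and 68.2 CPM in BAC depleted, against 53.6, 57.7 and 57.7 in BAC nondepleted. In the entry switch list 10 of 14 fell and none rose, with Cdc25c, the phosphatase that activates Cdk1 (-2.70 ± 0.46, 0.00127), and the centrosome kinase Nek2 (-2.57 ± 0.49, 0.00278) furthest. Of 4 other checkpoint genes 2 fell, Trip13 (-2.04 ± 0.27, 0.000251) and Mad1l1 (-0.58 ± 0.17, 0.0228). Of 8 other cytokinesis genes 5 fell, led by Cep55 (-2.88 ± 0.40, 0.000392) and the centralspindlin subunit Racgap1 (-2.18 ± 0.22, 4.37e-05).

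The anaphase-promoting complex list, most of it subunits of a complex that cells hold throughout the cycle, had 2 of 16 higher and 2 lower after depletion, both under the shares of all genes (17.4% and 19.9%), with a median of 0.09. Its largest changes were Anapc16 (0.50 ± 0.10, adjusted p = 0.00405) and the activator Fzr1 (-0.43 ± 0.09, 0.00445). Its partners Cdc20 and Ube2c, members of the 35, fell in the same libraries. Among 10 cohesin and separase genes, at about the share of all genes (19.9%), only Espl1, separase itself (-2.20 ± 0.24, 6.84e-05), and Rad21 (-0.60 ± 0.09, 0.00055) fell. Pttg1, securin, stood at 12.3, 12.4 and 12.7 CPM in BM sorted, against 28.5, 25.4 and 15.5 in BAC depleted, and was thus lower in BM sorted (-0.90 ± 0.19, 0.00347), against the direction of all 35.

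The transcription factors that switch these genes on and off did not share 1 direction. Of 18, 11 fell and 2 rose on depletion, where 19.9% of all genes tested fell and 17.4% rose. The rises were thus under the share of all genes. E2f2 (-3.37 ± 0.26, adjusted p = 5.95e-06) and E2f7 (-3.31 ± 0.43, 0.000279) fell most. Rbl2, which encodes the pocket protein p130 of the repressor that silences mitosis genes in resting cells, rose (0.75 ± 0.11, 0.000623), as did Lin52 (0.51 ± 0.15, 0.0238). Rbl2 stood at 111, 101 and 106 CPM in BAC depleted, against 63, 67.6 and 57.7 in BAC nondepleted. It was also lower in BM sorted than in BAC depleted (-1.56 ± 0.12, 2.24e-05), and Mybl2, an activator of mitosis genes, was higher (3.42 ± 0.37, 9.80e-05). Only 2 of the 142 genes changed on sorting, E2f2 (-2.09 ± 0.25, 0.00026) and the G1 kinase gene Cdk6 (-1.81 ± 0.23, 0.000406), both of which fell.

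DNA replication genes also fell, 15 of 18 on depletion (median -1.44), led by the helicase subunit Mcm5 (-3.37 ± 0.43, adjusted p = 0.000251) and Gmnn, geminin (-2.59 ± 0.29, 8.68e-05), and none passed on sorting. Of 6 G1 cyclins and kinases 3 fell and 1 rose on depletion, where 19.9% of all genes tested fell and 17.4% rose. A count of 1 rise in 6 is near the share of all genes. The one that rose was Ccnd2, cyclin D2, at 969.6, 1604 and 649 CPM in BAC depleted, against 206, 314 and 278 in BAC nondepleted (2.01 ± 0.32, adjusted p = 0.000803). Of 6 inhibitors of cyclin-dependent kinases 3 rose and 2 fell, against the same shares of all genes. Cdkn1c (p57) rose most (1.69 ± 0.56, 0.0363) and stood at 32.1, 22.4 and 26.8 CPM in BAC depleted, against 16.9, 4.72 and 3.43 in BAC nondepleted, followed by Cdkn2b (1.05 ± 0.36, 0.0433). Cdkn2c (-0.74 ± 0.22, 0.0236) fell.

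**Figure D4:**
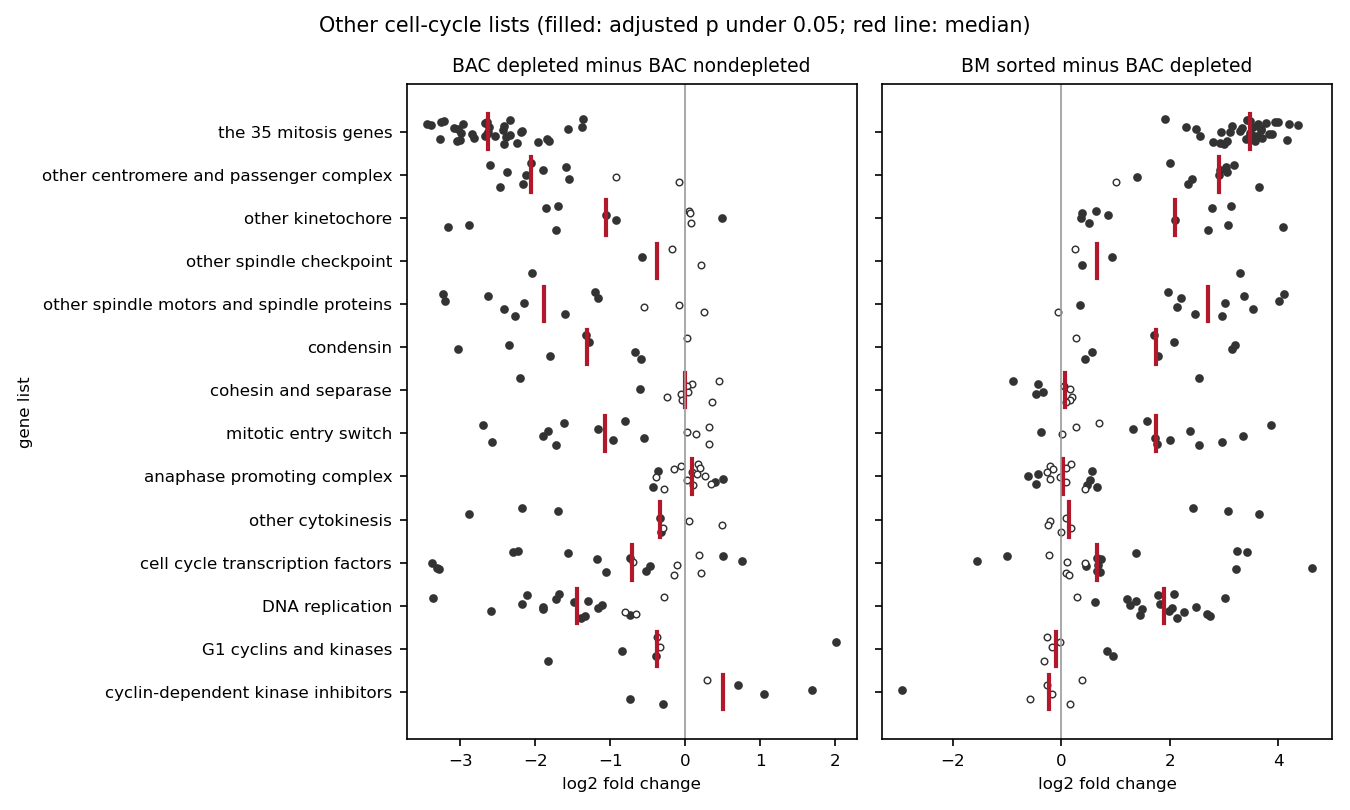
Log2 fold change of each gene of the 35 and of 13 other cell-cycle lists after depletion (left) and between the purified groups (right), with filled points for an adjusted p under 0.05 and a red line at each median. After depletion the medians run from -2.63 for the 35 genes to 0.50 for the inhibitors, with the anaphase-promoting complex at 0.09.

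Many mitosis promoters are known to carry a cell cycle genes homology region (CHR), bound by the DREAM repressor in resting cells and by MYBL2 and FOXM1 in dividing cells, together with CCAAT boxes bound by NF-Y. Because all 35 genes fell on depletion, the 250 bases before the annotated start were searched on both strands for the CHR letters TTTGAA or TTTAAA and for CCAAT. RefSeq promoters on build GRCm38.p6 matched 30 of the 35. Those not matched were Tpx2, Aurkb, Ccna2, Dlgap5 and Kif20a. A CCAAT match was found in 21 of 30 promoters (70%), against 34.5% of 27025 genes with a promoter in the table. A CHR match was found in 14 (46.7%), against 25.5%, and both in 11 (36.7%), against 9%. At least 2 CCAAT matches were found in 15 (50%), against 10.5%, and 6 promoters, those of Nuf2, Knl1, Nusap1, Mad2l1, Anln and Ndc80, had neither. These are shares of letters in a window, with no test, and they say nothing of whether a factor was bound in these cells. The 27025 genes include genes outside the 15698 tested, and shares over the tested genes alone were not counted.

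The 6 promoters with both kinds of match whose genes had the lowest adjusted p on depletion are shown, to let the spacing of the matches be read. They are Ect2 at chr3:27153879-27154128 (- strand), Kif11 at chr19:37376132-37376381 (+ strand), Cenpf at chr1:189688087-189688336 (- strand), Ccnb2 at chr9:70421555-70421804 (- strand), Ube2c at chr2:164769679-164769928 (+ strand), Mki67 at chr7:135716380-135716629 (- strand), in the annotation of GRCm38.p6, which is not the build of the counts. Each is given 5′ to 3′ on the strand of the gene, ending at the base before the start, with CHR and CCAAT matches on either strand in capitals.
Ect2: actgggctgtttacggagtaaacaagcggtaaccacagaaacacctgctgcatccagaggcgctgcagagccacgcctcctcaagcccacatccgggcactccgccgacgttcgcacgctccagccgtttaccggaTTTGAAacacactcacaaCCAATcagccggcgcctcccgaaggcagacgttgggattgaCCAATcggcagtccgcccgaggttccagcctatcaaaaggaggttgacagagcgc
Kif11: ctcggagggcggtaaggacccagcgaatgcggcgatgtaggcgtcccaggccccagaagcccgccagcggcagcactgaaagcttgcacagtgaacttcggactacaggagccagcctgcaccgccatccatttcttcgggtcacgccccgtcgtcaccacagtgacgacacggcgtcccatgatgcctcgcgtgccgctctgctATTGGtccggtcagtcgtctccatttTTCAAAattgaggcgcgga
Cenpf: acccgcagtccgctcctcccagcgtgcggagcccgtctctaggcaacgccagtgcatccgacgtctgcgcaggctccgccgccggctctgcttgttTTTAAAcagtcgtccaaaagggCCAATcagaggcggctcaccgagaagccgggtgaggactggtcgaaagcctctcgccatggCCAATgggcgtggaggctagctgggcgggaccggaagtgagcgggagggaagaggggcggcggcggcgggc
Ccnb2: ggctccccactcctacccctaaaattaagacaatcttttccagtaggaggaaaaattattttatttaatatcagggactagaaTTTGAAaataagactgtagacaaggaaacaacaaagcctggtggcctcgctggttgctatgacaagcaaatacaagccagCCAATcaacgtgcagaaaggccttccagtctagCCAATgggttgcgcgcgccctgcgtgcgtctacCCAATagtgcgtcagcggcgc
Ube2c: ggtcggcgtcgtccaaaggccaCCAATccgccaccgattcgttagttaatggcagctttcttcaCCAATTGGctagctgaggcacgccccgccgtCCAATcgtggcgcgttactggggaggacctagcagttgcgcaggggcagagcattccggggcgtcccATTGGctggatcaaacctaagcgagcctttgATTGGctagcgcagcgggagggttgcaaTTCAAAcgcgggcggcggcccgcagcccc
Mki67: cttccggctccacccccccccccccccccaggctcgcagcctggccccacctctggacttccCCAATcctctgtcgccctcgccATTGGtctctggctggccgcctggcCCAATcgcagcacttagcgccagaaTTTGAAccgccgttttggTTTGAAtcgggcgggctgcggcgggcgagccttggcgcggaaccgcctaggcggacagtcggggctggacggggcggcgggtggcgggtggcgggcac

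In Ect2, Cenpf and Ccnb2 the CHR letters lay before all CCAAT matches, in Kif11 and Ube2c after them and nearest to the start, and in Mki67 a pair of CHR matches followed 3 CCAAT matches. Ube2c held 6 CCAAT matches, 2 of which overlap. The genes shown fell 5.33-fold (Ect2), 6.20-fold (Kif11), 4.56-fold (Cenpf), 9.31-fold (Ccnb2), 8-fold (Ube2c) and 9.68-fold (Mki67) in BAC depleted.

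**Figure D5:**
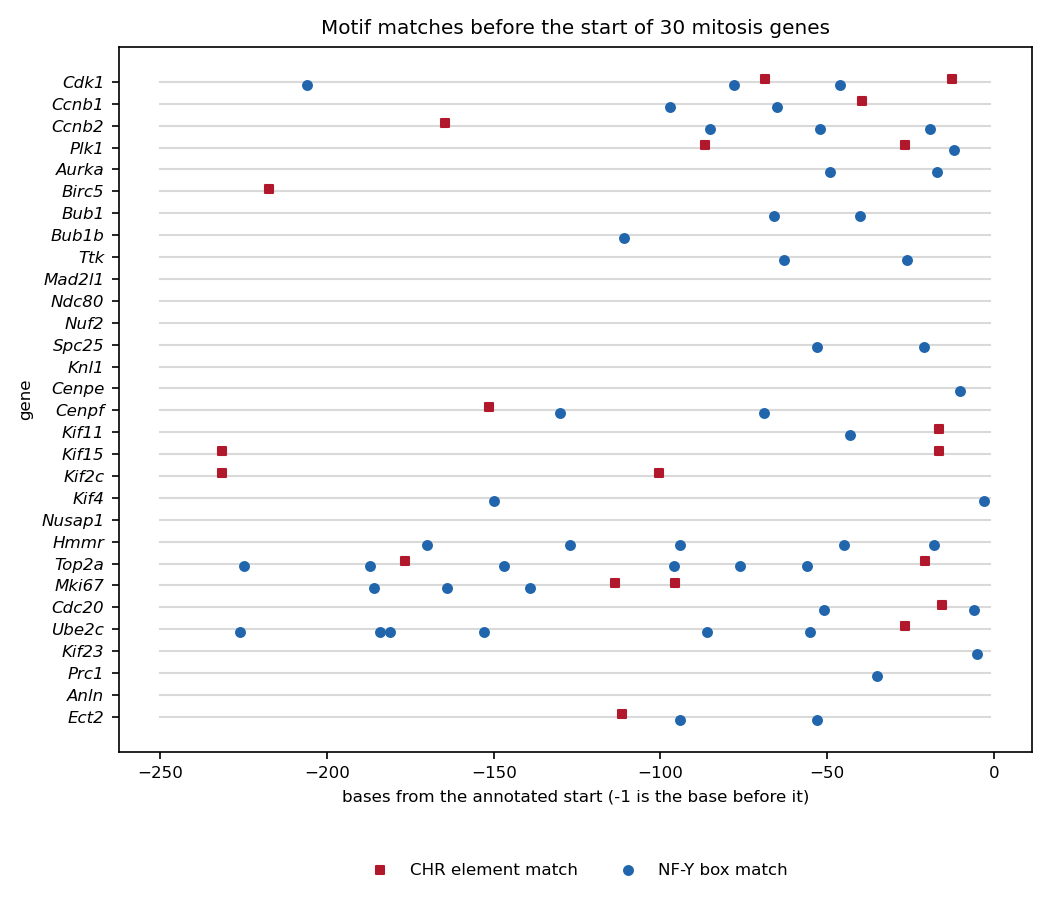
Positions of CHR element matches (red squares) and NF-Y box matches (blue circles) in the 250 bases before the annotated start of the 30 mitosis genes with a RefSeq promoter, in bases from that start. NF-Y box matches occur in 21 promoters and CHR matches in 14.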

How the data were processed

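The authors deposited 1 table of raw gene counts for the 12 libraries, not normalized. The submitters' processing notes name GRCm39, STAR 2.7.9a, MultiQC 1.7 and featureCounts (Subread 2.0.1). Per the labels, 50 ng of RNA entered a low-input library kit. Annotation release and strand setting: not given in the sources used here. Spans of 13 of the 35 genes overlap another RefSeq gene (Ccna2 with Exosc9, Aurka with Cstf1, Cdc20 with Elovl1 and Kif20a with Cdc23, for example), so some of their reads may be shared or lost. Of 53819 entries 22808 had 0 counts throughout.

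The analysis used edgeR 4.0.16 (R 4.3.3) with TMM scaling (factors 0.802 to 1.07), filterByExpr by group (15698 genes), 1 mean per group over all 12 libraries with 8 residual degrees of freedom, and the robust quasi-likelihood F test. P-values were adjusted by Benjamini-Hochberg over all genes of a comparison, with calls at an adjusted p under 0.05. The approximate SE is the absolute log2 fold change over the root of F. Levels are CPM on TMM-scaled libraries, n = 3 per group. Same-group libraries differed by more than counting error (chi-square per degree of freedom of at least 16.8). The fit was tested on simulated data. The alternatives were DESeq2 1.42.0 (Wald test, size factors), limma-voom 3.58.1, other scalings and filters, fits on the compared groups alone, a replicate block and fits with 1 library left out. All 35 genes are accounted for. From each other list up to 2 called genes with the largest rise and 2 with the largest fall in a comparison could be named, and Pttg1, Zwint and the other genes named fall under that rule. Promoters shown were the first 6 by adjusted p on depletion with both motifs. Genes and lists were chosen with earlier results of these data known.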

Additional observations from a re-analysis of the deposited data

Results flagged for a closer look

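The effect of flow sorting in marrow differed from that of magnetic depletion in bone-associated cells for 25 of the 35 genes. This was the test of the difference itself (sorting effect minus depletion effect, quasi-likelihood test of edgeR, Benjamini-Hochberg adjusted over all genes). Compartment and method of purification differ together here and cannot be told apart. In each of the 25 genes the depletion effect was the more negative. On the log2 scale the differences were 3.33 for Birc5, 3.32 for Bub1, 3.1 for Ccna2, 3.05 for Ccnb2, 2.96 for Nuf2, 2.9 for Aurkb, 2.88 for Top2a, 2.85 for Ube2c, 2.84 for Kif15, 2.84 for Mki67, 2.83 for Ndc80, 2.78 for Kif23, 2.74 for Kif4, 2.7 for Ttk, 2.62 for Kif2c, 2.55 for Plk1, 2.41 for Aurka, 2.38 for Kif11, 2.28 for Ect2, 2.23 for Bub1b, 2.19 for Tpx2, 2.18 for Nusap1, 2.05 for Cenpf, 1.61 for Mad2l1, 1.54 for Spc25. Their adjusted p ran from 0.00428 for Mad2l1 to 0.0489 for Kif23. In the same contrasts the summed macrophage markers were 6.35 to 8.73 CPM in BM sorted, against 5105 to 5794 in BM nonsorted, and 12.5 to 64.5 CPM in BAC depleted, against 12993 to 14663 in BAC nondepleted. Their part in the difference was not tested.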

How the results depend on the processing

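The calls on depletion (35), between the purified groups (35) and on sorting (0) changed by at most 4 genes under all alternatives. Between the unpurified groups the count of 15 became 29 with limma-voom, 34 in a fit on these groups alone, 5 without a low-count filter and 9 with the replicate block, and 4 to 6 with 1 library left out, and the cause was not tested. For the difference of the effects the count of 25 was 17 to 35 in the other settings and 11 to 35 with 1 library left out. With 1 library left out the median log2 fold change of the 35 genes was -3.51 to -2.33 on depletion, 3.12 to 4.25 between the purified groups, -0.34 to 0.01 on sorting, 0.82 to 1.01 between the unpurified groups and 2.17 to 3.40 for the difference of the effects. Leaving out BAC depleted 1 and 3 together, chosen after seeing the data, gave medians of -1.94, 2.59 and 1.72 for the 3 comparisons that use this group. With the replicate block the counts were 0 on sorting, 35 on depletion, 35 between the purified groups and 19 for the difference. Whether the numbers pair the samples could not be settled from 3 libraries a group. Deviations of same-numbered libraries correlated at -0.22 to 0.24, and not every library correlated best with its own number. These correlations were 0.04 to 0.24 on depletion and 0.03 to 0.13 between the purified groups. They were -0.22 to 0.21 on sorting and -0.06 to -0.03 between the unpurified groups. Total count scaling put the median of all genes at 0.15 between the purified and 0.11 between the unpurified groups, and upper quartile scaling at 0.13 on depletion; the medians of the 35 genes were then 3.66, 1.02 and -2.57. No gene reversed a called direction in any alternative. With 3 libraries a group and SE of 0.16 to 0.54, small and moderate differences after sorting could go undetected.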
